A study of Homo sapiens with 12 samples.

Results

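Collagens and laminins are the structural proteins of the extracellular matrix, and integrins are the receptors through which cells hold on to it. The genes described here are those whose symbol has the form of a collagen chain, a laminin chain or an integrin. Of the 86 protein-coding symbols of that form in the RefSeq gene table, 4 stood among the 14582 genes that could be named on these arrays. These were COL26A1, ITGB1BP1, ITGB1BP2 and ITGB3BP. The other 82 are not analysed here, among them 43 collagen genes, all 12 laminin chains and every chain of an integrin receptor. The family name therefore describes only 1 of the 4 genes, COL26A1. The other 3 carry the name of an integrin because their protein binds its tail, and the values below give no information on laminins, on integrin receptors or on the main fibril and basement membrane collagens.

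The cells were SK-MEL-2 (SKMEL2 in the labels), an established human melanoma line, grown in serum-containing medium and treated for 24 hours. There were 4 groups of 3 arrays. The DMSO group received vehicle. The DT group received dabrafenib at 100 nM, a RAF kinase inhibitor, with trametinib at 10 nM, a MEK inhibitor. The E group received entinostat at 1 µM, an inhibitor of class I histone deacetylases, and the DTE group received all 3 agents. The replicates are called biological in the sample titles and technical in the series text, so a p-value measures only the spread between these arrays of 1 line. The comparisons address the change with each treatment alone, its change on top of the other treatment, and, through the interaction, (DTE - DT) - (E - DMSO), whether the effects add up on the log2 scale.

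An integrin is a pair of chains, alpha and beta, that spans the membrane. Its short beta tail binds talin and kindlin, which switch the receptor to its active form and join it to actin. ITGB1BP1, also called ICAP1, binds the tail of the beta1 chain and competes with talin, and it also binds KRIT1 of the cerebral cavernous malformation complex. ITGB1BP2, melusin, binds the same tail and is known from heart and skeletal muscle. ITGB3BP was found through the tail of the beta3 chain. Its product is also CENP-R, a subunit of the CENP-O/P/Q/R/U complex of the inner kinetochore, which sits on centromeres. COL26A1 encodes a short secreted collagen with an EMI domain, a domain shared with the emilins and multimerins.

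RefSeq start-site windows (GRCh38.p14) were held for all 4 genes, each with 250 bases before the start and 50 after it. They are shown because ITGB3BP was the gene with the clearest response, and they allow its start region to be set beside those of the others. Capitals mark matches, on either strand, to the ETS core CGGAAG, the E2F motif TTTGGCG, the cell cycle homology region TTTGAA, the AP-1 motif TGANTCA or the NF-Y motif CCAAT. The motifs were chosen after the windows had been read. The first 4 lines give 30 bases with a match in each gene, at chr1:63523182-63523211 (minus strand) for ITGB3BP, chr2:9423609-9423638 (minus) for ITGB1BP1, chr7:101362820-101362849 (plus) for COL26A1 and chrX:71301543-71301572 (plus) for ITGB1BP2. The last line gives the 250 bases before the ITGB3BP start, at chr1:63523226-63523475.
ITGB3BP: ccTTTGGCGgattttctgttttCGGAAGtt
ITGB1BP1: gcggcactagactcctcccctcgaCTTCCG
COL26A1: cggcttagagcccacctcgccgaaTTTGAA
ITGB1BP2: acctcacccaagTTCAAAgccctactctgc
ITGB3BP upstream: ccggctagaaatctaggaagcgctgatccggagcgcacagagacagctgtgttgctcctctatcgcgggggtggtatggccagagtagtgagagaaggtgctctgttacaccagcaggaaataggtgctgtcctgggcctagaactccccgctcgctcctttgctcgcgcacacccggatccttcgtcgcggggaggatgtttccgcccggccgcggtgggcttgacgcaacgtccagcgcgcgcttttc

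In ITGB3BP the E2F letters began 17 bases and the ETS core 37 bases into the transcript, and none of the motifs was found in the 250 bases before the start. The E2F letters were present in 1.92% of all 35116 windows and the ETS core in 19.5%. ITGB1BP1 held 2 ETS cores and 1 NF-Y motif, whose share of all windows was 34.6%. COL26A1 held 2 copies of the cell cycle homology letters (15.2% of windows), the nearer of them beginning 31 bases before the start. ITGB1BP2 held 1 such copy and 1 NF-Y motif. The AP-1 motif, present in 7.71% of windows, had no match in these windows. A match is a run of letters and was not tested for binding.

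The arrays differed in overall level, and this bears on all values below. The median over all probe sets lay between 21.5 and 25.2 on the DMSO arrays, 21.5 and 22.8 on the DT arrays, and 25.2 and 31.9 on the E arrays. It was 16.8 to 18.4 on the DTE arrays, below all others. Against DMSO, the median gene differed by -0.12 (log2) with DT, by 0.14 with entinostat and by -0.54 with the 3 agents. Each difference is therefore given in deposited values and again after quantile normalization, which puts all arrays on 1 distribution. All 8 measured melanocytic markers were well above background in every group, with a summed intensity of 5098 to 5827 on the DMSO arrays and 2444 to 2646 on the DTE arrays. Some measured markers of other cell types were also above background in DMSO, namely THY1 of 3 fibroblast markers, EPCAM, KRT14 and KRT8 of 4 epithelial markers, both endothelial markers (VWF and KDR) and both leukocyte markers (CD14 and CSF1R), while DCN, LUM and KRT5 were not. On the DMSO and E arrays the fibroblast markers summed to 36.3 to 48.0 and 58.8 to 64.7, and the epithelial markers to 106 to 142 and 147 to 160. The endothelial markers summed to 42.1 to 59.6 and 213 to 314, and the leukocyte markers to 55.4 to 57.9 and 257 to 331. The part of these markers in the results was not tested.

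ITGB3BP, the kinetochore and beta3-tail protein, fell with dabrafenib plus trametinib and rose with entinostat. Its intensity was 111, 117 and 94.6 on the DMSO arrays and 50.4, 45.6 and 46.5 on the DT arrays. It was 153, 146 and 166 on the E arrays and 43.4, 40.2 and 44.1 on the DTE arrays. The E arrays were the highest, the DMSO arrays came next, and the DT and DTE arrays were lowest, with no overlap between any pair of groups, although DT and DTE differed little. The mean was 108 ± 11.5 without drug, 47.5 ± 2.58 with DT, 155 ± 9.74 with E and 42.5 ± 2.08 with DTE (SD, n = 3).

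From DMSO to DT, ITGB3BP fell 2.26-fold (log2 difference -1.18 ± 0.13, SE; limma adjusted p = 2.9e-07). After quantile normalization the difference was -0.82 ± 0.10 (adjusted p = 2.3e-05). Only 2.66% of all genes had a lower difference in deposited values, and 3% after quantile normalization. The 1458 genes in its bin, 1 of 10 equal bins of mean intensity, had a median of -0.33. With entinostat alone ITGB3BP rose 1.45-fold (0.53 ± 0.13, adjusted p = 0.0038), and by 0.40 ± 0.10 after quantile normalization (adjusted p = 0.0057). When each array was centred on its median in place of quantile normalization, the rise was 0.24 and did not pass the threshold (adjusted p = 0.08).

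The response of ITGB3BP to entinostat on top of dabrafenib plus trametinib turned on the scaling. In deposited values DTE and DT differed by -0.16 ± 0.13 (adjusted p = 0.32). After quantile normalization DTE was higher than DT by 0.48 ± 0.10 (adjusted p = 0.0017), and after median centring by 0.16 (adjusted p = 0.22). Adding dabrafenib plus trametinib to entinostat gave -1.87 ± 0.13, a 3.65-fold fall (adjusted p = 1.0e-10), and -0.75 ± 0.10 after quantile normalization (adjusted p = 1.3e-04). Only 1.47% and 1.97% of genes had a lower difference in that comparison. Between DTE and DMSO the difference was -1.33 ± 0.13 (adjusted p = 6.5e-09), against -0.35 ± 0.10 after quantile normalization (adjusted p = 0.0098). ITGB3BP was thus lower in both arms with dabrafenib plus trametinib under both scalings, and the size in DTE depended on the scaling.

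**Figure D1:**
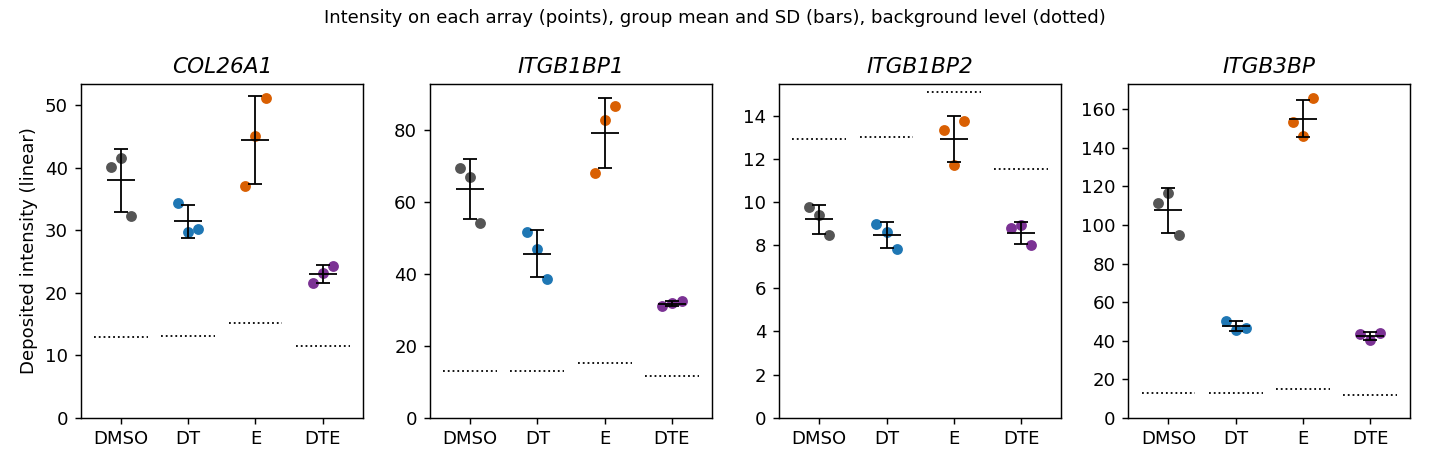
Deposited linear intensity of each gene on the y axis for the 4 treatment groups on the x axis; points are arrays, horizontal bars and whiskers are the mean and SD of 3 arrays, and dotted lines are the mean background level of the group. ITGB3BP separates the groups with and without dabrafenib plus trametinib, and all ITGB1BP2 points lie under the background line.

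ITGB1BP1, the beta1-tail protein ICAP1, passed the test as lower in every comparison that put a DT or DTE group against its control in deposited values, in 3 of these 4 after median centring and in none after quantile normalization. Its intensity was 69.7, 67.1 and 54.3 in DMSO and 51.6, 46.8 and 38.6 in DT. On the E arrays it was 68.1, 83.0 and 86.8, and on the DTE arrays 31.2, 31.8 and 32.4. The DTE arrays were lowest and did not overlap any other group, the DT arrays lay just under the DMSO arrays, and the E and DMSO arrays overlapped. Between DT and DMSO the gene fell by 0.48 ± 0.15 on the log2 scale (adjusted p = 0.016). That call was kept after median centring (-0.39, adjusted p = 0.0086). It was lost after quantile normalization (-0.20 ± 0.10, adjusted p = 0.14), and without DMSO replicate 1 (-0.41, adjusted p = 0.082), DMSO replicate 2 (-0.44, adjusted p = 0.07) or DT replicate 3 (-0.36, adjusted p = 0.11). With entinostat it measured 0.32 ± 0.15 (adjusted p = 0.12), and 0.11 ± 0.10 after quantile normalization (adjusted p = 0.45), although the first value passed the threshold without E replicate 1 (0.42, adjusted p = 0.041).

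With all 3 agents ITGB1BP1 fell 1.99-fold against DMSO (-0.99 ± 0.15, adjusted p = 2.4e-06), a difference close to the median of -0.99 in its own intensity bin. After quantile normalization it measured -0.16 ± 0.10 (adjusted p = 0.22). Against E the deposited difference was -1.31 ± 0.15 (adjusted p = 4.8e-08) and the quantile difference -0.26 ± 0.10 (adjusted p = 0.073). Against DT these were -0.51 ± 0.15 (adjusted p = 0.0046) and 0.05 ± 0.10 (adjusted p = 0.76). After median centring the difference from DMSO was -0.59 (adjusted p = 1.4e-04) and that from E -0.61 (adjusted p = 1.8e-04), while that from DT was -0.20 and did not pass (adjusted p = 0.14).

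COL26A1, the collagen of the set, was dimmer. Its intensity was 40.1, 41.6 and 32.2 in DMSO and 34.4, 29.7 and 30.1 in DT. The E arrays gave 37.0, 45.1 and 51.04, and the DTE arrays 21.5, 23.1 and 24.3. All 12 values were above the background level of their array, the DTE arrays lay below all others, and the DMSO arrays overlapped both DT and E. Neither single treatment passed the threshold against DMSO, with -0.27 ± 0.15 for DT (adjusted p = 0.2) and 0.22 ± 0.15 for E (adjusted p = 0.29). In deposited values COL26A1 was lower in DTE than in DMSO (-0.72 ± 0.15, adjusted p = 1.4e-04), DT (-0.45 ± 0.15, adjusted p = 0.011) and E (-0.94 ± 0.15, adjusted p = 3.9e-06). The difference from DT missed the threshold without DT replicate 1 (-0.38, adjusted p = 0.061) and without DTE replicate 1 (-0.40, adjusted p = 0.051). After quantile normalization the same 3 differences were -0.12, -0.04 and -0.06, each with an SE of 0.07, and none passed (adjusted p = 0.2, 0.73 and 0.62). After median centring COL26A1 was lower than in DMSO (-0.31, adjusted p = 0.011) and E (-0.24, adjusted p = 0.043), and the difference from DT was -0.13 (adjusted p = 0.28). The single treatments gave -0.18 for DT and -0.07 for E after median centring (adjusted p = 0.19 and 0.6). After quantile normalization they gave -0.08 ± 0.07 for DT and -0.06 ± 0.07 for E (adjusted p = 0.44 and 0.58).

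ITGB1BP2, the muscle protein melusin, was not well above background in any group. Its intensity was 9.75, 9.38 and 8.44 on the DMSO arrays and 8.98, 8.60 and 7.82 on the DT arrays. It was 13.3, 11.7 and 13.7 on the E arrays and 8.78, 8.91 and 7.99 on the DTE arrays. The background level, the brightness that 95% of the dimmest 25% of genes did not exceed, lay between 11.1 and 16.2 on single arrays, and no array gave ITGB1BP2 a value above its own. The E arrays were higher than the rest without overlap and passed the test against DMSO (adjusted p = 0.0071, and 0.039 after quantile normalization), but no fold is given between levels that are both at background. The background level itself was higher in E than in the other groups.

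**Figure D2:**
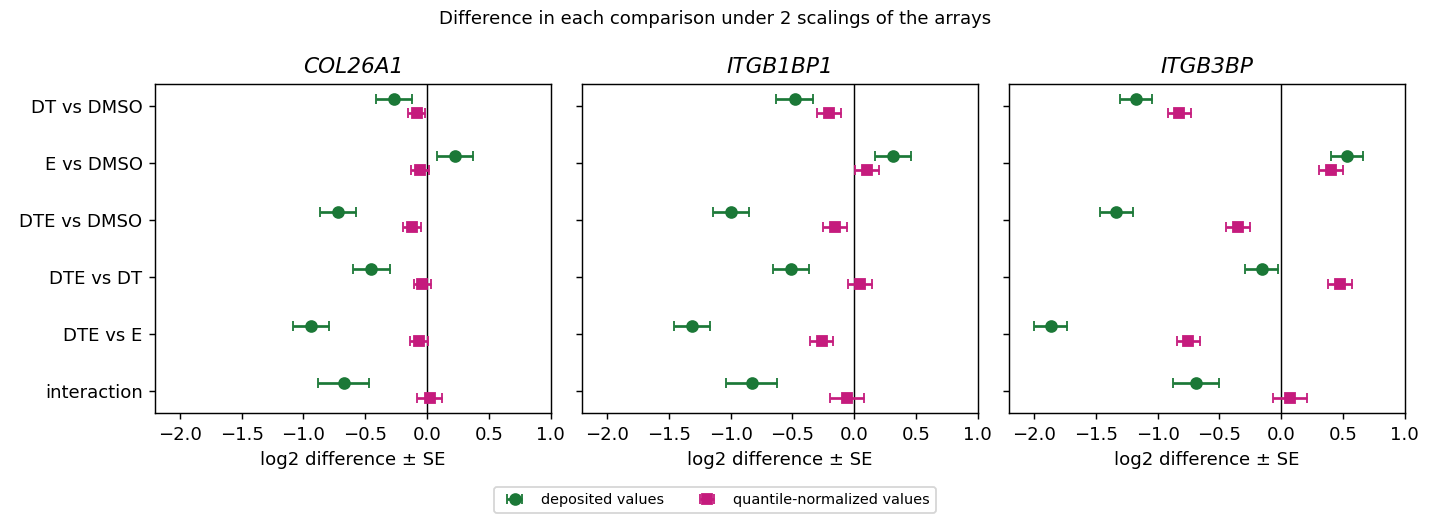
The x axis gives the log2 difference with its SE for the 3 genes above background, with the 6 comparisons on the y axis; circles are deposited values and squares are quantile-normalized values. For COL26A1 the squares lie near 0. For ITGB1BP1 they run from -0.26 (DTE vs E) to 0.11 (E vs DMSO), and none passed the threshold. For ITGB3BP they remain at -0.82 for DT and 0.40 for E against DMSO.

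Counted over the 4 genes in deposited values, 0 were higher and 2 lower in DT than in DMSO, where 4.72% and 23.1% of all genes were called. For E the counts were 2 and 0 (20.8% and 4.81% of all genes), 1 of the 2 being ITGB1BP2. For DTE against DMSO they were 0 and 3 (4.26% and 60.8%). Against DT they were 0 and 2 (4.09% and 54%), and against E 0 and 4 (0.247% and 78.5%). After quantile normalization DT lowered 1 gene (15% of all genes), E raised 2 (15.3%), and DTE lowered 1 against DMSO (23%), raised 1 against DT (16.2%) and lowered 1 against E (10.8%, beside 9.34% called higher). Apart from the ITGB1BP2 call in E, each of these was ITGB3BP. With 4 genes, these counts are no measure of a family.

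The interaction was below 0 and passed the threshold in deposited values for the 3 genes above background, as it did for 62.5% of all genes. ITGB1BP2 passed it too, but its groups are all at background and its value is not read as an effect. ITGB3BP measured -0.69 ± 0.19 (adjusted p = 0.0037), ITGB1BP1 -0.83 ± 0.21 (adjusted p = 0.0023) and COL26A1 -0.67 ± 0.21 (adjusted p = 0.0083), beside a median of -0.63 over all genes. On that scale the DT and E effects on ITGB3BP summed to -0.64 and the DTE effect was -1.33. After quantile normalization the sum was -0.42 and the DTE effect -0.35, and the interaction was 0.07 ± 0.14 (adjusted p = 0.85). ITGB1BP1 then measured -0.06 ± 0.14 and COL26A1 0.02 ± 0.10 (adjusted p = 0.88 and 0.94). The interaction was called lower for 2.19% and higher for 1.91% of genes under that scaling, and for none of the 4.

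ITGB3BP was then set beside the genes of its kinetochore complex and of the rest of the constitutive centromere network, lists chosen after the 4 genes were known. All 4 complex partners fell in DT in both scalings, CENPO by 1.39 (quantile 1.04), CENPP by 1.57 (1.24), CENPQ by 1.55 (1.19) and CENPU by 1.05 (0.69) on the log2 scale. Of 11 other centromere genes 11 fell in deposited values and 9 after quantile normalization, where 23.1% and 15% of all genes were called lower. Entinostat raised ITGB3BP and 1 of the 4 partners, CENPU, which measured 0.59 in deposited values and 0.49 after quantile normalization (adjusted p = 0.0032 and 4.7e-04). Of the 11 other centromere genes CENPI (1.05, quantile 0.89) and CENPW (0.57, quantile 0.51) rose under both scalings, and CENPM fell (-0.37, quantile -0.45). CENPK and CENPT were lower after quantile normalization only, at -0.52 and -0.31 (adjusted p = 0.0018 and 0.017). In deposited values they measured -0.41 and -0.11 (adjusted p = 0.072 and 0.66). CENPO and CENPP were not higher, with -0.16 and -0.11 (adjusted p = 0.44 and 0.65), and were lower after quantile normalization, at -0.25 and -0.27 (adjusted p = 0.025 and 0.042). CENPQ measured 0.04 and -0.09 (adjusted p = 0.88 and 0.56). Of all genes, 20.8% were called higher and 4.81% lower in E, and 15.3% and 16.2% after quantile normalization. From DT to DTE, CENPU was higher after quantile normalization (0.35, adjusted p = 0.0047), and in deposited values it measured -0.33 (adjusted p = 0.056). CENPI and CENPW were also higher after quantile normalization (1.12 and 0.68, adjusted p = 4.5e-05 and 0.0011), and measured 0.47 and -0.02 in deposited values (adjusted p = 0.014 and 0.9). CENPM was higher after quantile normalization (0.23, adjusted p = 0.038) and lower in deposited values (-0.50, adjusted p = 0.0023). The partner CENPO was lower under both scalings (-1.05, quantile -0.35). So were CENPC (-1.22, quantile -0.52), CENPT (-0.88, quantile -0.38) and CENPX (-1.20, quantile -0.45). In deposited values 0 of the 4 partners were higher and 3 lower from DT to DTE. Of the 11 others 1 was higher and 8 lower in deposited values, beside 4.09% and 54% of all genes. After quantile normalization 1 of the 4 partners was higher and 1 lower from DT to DTE. Of the 11 others 3 were higher and 3 lower, beside 16.2% and 18.2% of all genes. These comparisons share arrays, and the difference between genes was not tested.

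**Figure D3:**
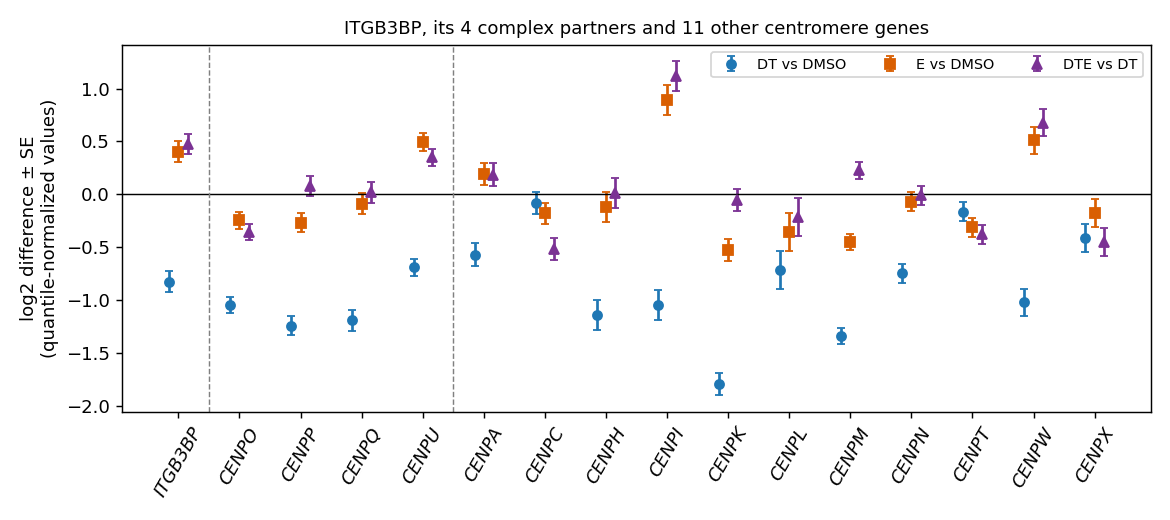
The y axis gives the log2 difference with its SE in quantile-normalized values for ITGB3BP, its 4 partners in the complex and 11 other centromere genes on the x axis; circles are DT and squares E, both against DMSO, and triangles are DTE against DT. All circles lie below 0, at -0.82 for ITGB3BP, while squares and triangles lie on both sides of it.

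The genome neighbours of ITGB3BP and ITGB1BP1 start close by on the opposite strand. EFCAB7, the divergent neighbour of ITGB3BP, gave a DT difference of -0.14 ± 0.14 (adjusted p = 0.54) and 0.04 after quantile normalization (adjusted p = 0.83). Its intensity was 37.7 ± 5.33 in DMSO and 34.2 ± 1.63 in DT (SD, n = 3). CPSF3, the neighbour of ITGB1BP1, is not analysed here. Of the cerebral cavernous malformation genes that ITGB1BP1 is tied to, HEG1 and CCM2 rose with entinostat in both scalings, by 0.65 (quantile 0.57) and 0.76 (0.43), while ITGB1BP1 itself did not pass the test. PDCD10 measured 0.23 (adjusted p = 0.25, quantile 0.17). Of all genes, 20.8% were called higher in E, and 15.3% after quantile normalization. Of the 6 EMI domain genes related to COL26A1, 0 rose and 0 fell with entinostat in deposited values, beside 20.8% and 4.81% of all genes. After quantile normalization 0 rose and 2 fell, beside 15.3% and 16.2%. In DT EMILIN2 fell (-0.52, adjusted p = 0.0058) but did not pass after quantile normalization (-0.20, adjusted p = 0.25). MMRN2 passed the test as higher in DT under both scalings, and since it was not above background on any DMSO array, no fold is given.

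Other matrix and adhesion genes give the surroundings of the 4 genes. Of 148 genes in 8 lists 104 were measured. In DT 11 rose and 18 fell (median difference -0.03), where 4.72% of all genes were called higher and 23.1% lower. After quantile normalization 33 rose and 10 fell (median 0.10), beside 14.6% and 15% of all genes. In E 30 were higher and 7 lower (median 0.19), beside 20.8% and 4.81% of all genes, and after quantile normalization 26 and 22 (median -0.02), beside 15.3% and 16.2%. In DTE against DMSO 12 rose and 64 fell (median -0.48), beside 4.26% and 60.8% of all genes, so the share that fell was close to that of all genes. After quantile normalization the counts were 34 and 20 (median 0.02), beside 20% and 23%. Among the integrin activators and adhesion adaptors, 1 of 21 was higher and 4 lower in DT, near the shares of all genes given above. After quantile normalization 6 were higher and 2 lower in DT, beside 14.6% and 15%. From DT to DTE 0 were higher and 16 lower, beside 4.09% and 54% of all genes. After quantile normalization these counts were 1 and 9, beside 16.2% and 18.2%. In DTE against DMSO 0 were higher and 19 lower, and 2 and 7 after quantile normalization, beside the shares given above. In DT, TNS2, a tensin, measured 0.78 (quantile 0.95) and the kinase CSK -0.85 (quantile -0.51). Basement membrane components had 5 of 11 higher and 0 lower in E, beside 20.8% and 4.81% of all genes, among them nidogen 2, NID2 (2.00, quantile 1.59). After quantile normalization 4 were higher and 0 lower, beside 15.3% and 16.2%.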

How the data were processed

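For each of 12 arrays the authors deposited 1 linear intensity per probe set. RMA and the Transcriptome Analysis Console are the tools that the submitters' processing notes list. The labels add that an ERCC spike-in mix went in before RNA extraction. How arrays were scaled to each other, the genome build and the platform annotation used are not given in the sources used here. Intensities ran from 2.345 to 8595, so log2 was taken, with no pseudocount or filter.

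With 3 arrays per group, their number limits the precision.

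Names were found for 14750 of 29398 probe sets (50.2%) through a platform table of probe sets and gene identifiers, all of which matched RefSeq, and 14648 were not named here. The probe set with the highest mean stood for a gene, which left 14582 genes, and each of the 4 described genes had 1 probe set. All 12 arrays were fitted with limma 3.58.1 (R 4.3.3, lmFit and eBayes), with 6 contrasts and Benjamini-Hochberg adjustment over all genes (threshold 0.05). Rose and fell refer to adjusted p values under it. The dimmest 25% of genes were picked once, by mean log2 intensity over all 12 arrays. Background on each array was the level that 95% of these genes did not exceed there. The rule for naming genes took the called genes with the largest changes that are well above background. It also took the brightest of each family and those with the smallest adjusted p in each list. Since 4 genes matched the symbol form, all are given. For the matrix and adhesion lists the rule was not carried through. Only TNS2, CSK and NID2 are named in that part, and larger log2 differences are not. Among these are CSPG4 in DT (-1.97, quantile -1.60) and SPP1 in E (2.22, quantile 2.13), both against DMSO. Another is MMP14 in DTE against DMSO (-2.03, quantile -1.01). The genes, the lists, the motifs and the partner genes were chosen with earlier results of these data known. The fit was checked on simulated data. Alternatives were quantile normalization, median centring, a filter on dim genes, the mean of probe sets, a replicate block and leaving out each array.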

Additional observations from a re-analysis of the deposited data

Results flagged for a closer look

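The effect of entinostat differed between cells with and without dabrafenib plus trametinib, by the test of the interaction in deposited values, for the 3 genes above background. The interaction on the log2 scale was -0.67 for COL26A1, -0.83 for ITGB1BP1 and -0.69 for ITGB3BP. The median over all genes was -0.63, and the same test called 62.5% of all genes lower. ITGB1BP2 measured -0.47 (adjusted p = 0.031), but all its groups are at background, so that value is not read as a difference in effect. After quantile normalization the values were 0.02, -0.06 and 0.07 in that order and -0.13 for ITGB1BP2, and none passed the threshold.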

How the results depend on the processing

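With quantile normalization the genes lower were 1 in DT vs DMSO, 1 in DTE vs DMSO, 0 in DTE vs DT, 1 in DTE vs E and 0 for the interaction, and 1 was higher in DTE vs DT. With median centring the genes higher were 0 in E vs DMSO, 1 in DTE vs DMSO and 1 in DTE vs DT, the last 2 being ITGB1BP2, and the genes lower were 0 in DTE vs DT and 0 for the interaction. With the filter on dim genes, which left out ITGB1BP2, 1 gene was higher in E vs DMSO. Leaving out 1 array gave 1 to 2 genes lower in DT vs DMSO, 1 to 2 lower in DTE vs DT, 2 to 3 higher in E vs DMSO and 3 to 4 lower for the interaction.

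Signs turned as follows. With quantile normalization COL26A1 measured -0.0597 in E vs DMSO and 0.0224 for the interaction, ITGB1BP1 0.0463 in DTE vs DT, ITGB1BP2 0.0226 in DTE vs DMSO, and ITGB3BP 0.48 in DTE vs DT and 0.0727 for the interaction. With median centring COL26A1 measured -0.0693 in E vs DMSO, ITGB1BP2 0.31 in DTE vs DMSO, 0.11 in DTE vs E and 0.14 for the interaction, and ITGB3BP 0.16 in DTE vs DT. Leaving out 1 array gave ITGB1BP2 -0.0390 to 0.0657 in DTE vs DT. The cause was not tested. The ITGB1BP2 call for the interaction was lost without DMSO replicate 3, DT replicate 1, DT replicate 2, E replicate 3 or DTE replicate 3.

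Deviations of the deposited values from the group means correlated at -0.22 to 0.13 over 18 same-numbered pairs of arrays. These deviations carry the overall level of each array and were not set beside differently numbered pairs. They therefore cannot show whether the replicate numbers pair the arrays. With the replicate block the counts stayed at 2 genes lower in DT vs DMSO and 2 higher in E vs DMSO. All 24 differences kept their side of the threshold. Their sizes were the same with and without the block, because every group holds the same replicate numbers, so their signs were not put to a test. The mean over probe sets could not change these differences either, because each described gene had 1 probe set. The ITGB3BP fall in DT ranged from -1.26 to -1.11 over the arrays left out, and its rise in E from 0.44 to 0.59.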
